A study of Mus musculus with 6 samples.

Results

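Dlx1, Dlx2, Dlx3, Dlx4, Dlx5, Dlx6, Barx1, Gsc and Lhx8 are homeobox genes that pattern the jaw and pharyngeal arch mesenchyme. They are the 9 genes described here, of 46983 in the count table, and were taken by symbol from the GENCODE M21 annotation. RNAseq was carried out on GFP+ neural crest cells (NCCs) sorted from E11.25 mouse embryos, with 3 control and 3 BAF155/BAF170-deficient libraries. The control genotype was Wnt1Cre/+;BAF155flox/+;BAF170flox/+;Rosa26mTmG/+ and the deficient genotype was Wnt1Cre/+;BAF155flox/flox;BAF170flox/flox;Rosa26mTmG/+, so that every library carried Cre and the reporter, and control NCCs had also lost 1 copy of each gene. BAF155 and BAF170, encoded by Smarcc1 and Smarcc2, are core subunits of the BAF chromatin remodeling complex. In Wnt1Cre mice the recombinase is also active in the dorsal neural tube, and the sort does not separate NCCs of the pharyngeal arches from those of other regions. The sources used here do not state litters for the libraries, and p-values measure the spread between these samples.

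Dlx proteins are transcription factors that act in pairs. Dlx1 and Dlx2 are expressed along the whole proximal to distal extent of the first and second arches, and Dlx5 and Dlx6, which respond to endothelin 1 through its receptor Ednra, are expressed in the ventral part and give the lower jaw its identity. Dlx3 and Dlx4 are expressed more distally still. Barx1 marks arch mesenchyme that forms molar tooth and cartilage, Gsc acts downstream of endothelin signaling in the mandibular arch, and Lhx8 is a LIM homeobox gene of oral mesenchyme that is needed for closure of the palate. Outside the crest, Dlx1, Dlx2, Dlx5, Dlx6 and Lhx8 are expressed in the ventral forebrain, and Dlx3 and Dlx5 are expressed in surface ectoderm.

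The 6 Dlx genes lie as 3 convergent pairs (GRCm38, GENCODE M21). Dlx1 (chr2:71528113-71533981, plus strand) and Dlx2 (chr2:71543408-71546754, minus strand) are separated by 9426 bp, Dlx6 (chr6:6863334-6868568, plus strand) and Dlx5 (chr6:6877805-6882085, minus strand) by 9236 bp, and Dlx3 (chr11:95120119-95125296, plus strand) and Dlx4 (chr11:95140447-95146263, minus strand) by 15150 bp. Barx1 is at chr13:48662998-48666507 on the plus strand, Gsc at chr12:104471209-104473330 on the minus strand and Lhx8 at chr3:154306294-154330659 on the minus strand. All are protein-coding, and counts were taken over their exons.

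The homeoboxes of the Dlx genes are shown because the 6 genes are paralogs, and reads from a near-identical copy could have been split between them. They were read from the GENCODE M21 transcripts, 60 codons each, and capitals mark bases that differ from Dlx6.
Dlx1 homeobox: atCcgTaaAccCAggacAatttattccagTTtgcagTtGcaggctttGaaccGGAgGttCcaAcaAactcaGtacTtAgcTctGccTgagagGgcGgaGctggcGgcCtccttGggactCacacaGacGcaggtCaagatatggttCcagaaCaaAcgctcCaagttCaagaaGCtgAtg
Dlx2 homeobox: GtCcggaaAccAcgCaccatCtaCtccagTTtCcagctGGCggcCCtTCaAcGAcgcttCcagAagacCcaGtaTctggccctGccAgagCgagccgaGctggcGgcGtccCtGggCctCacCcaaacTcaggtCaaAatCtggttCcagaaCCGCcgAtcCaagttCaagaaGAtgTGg
Dlx3 homeobox: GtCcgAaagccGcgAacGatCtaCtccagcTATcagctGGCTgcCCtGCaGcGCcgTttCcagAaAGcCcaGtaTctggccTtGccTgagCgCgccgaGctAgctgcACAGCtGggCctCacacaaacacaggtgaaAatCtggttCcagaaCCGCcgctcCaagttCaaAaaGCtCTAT
Dlx4 homeobox: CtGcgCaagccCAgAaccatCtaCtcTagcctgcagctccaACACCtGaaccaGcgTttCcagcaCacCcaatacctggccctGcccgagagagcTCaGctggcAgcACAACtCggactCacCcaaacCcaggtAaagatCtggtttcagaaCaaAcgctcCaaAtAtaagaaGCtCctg
Dlx5 homeobox: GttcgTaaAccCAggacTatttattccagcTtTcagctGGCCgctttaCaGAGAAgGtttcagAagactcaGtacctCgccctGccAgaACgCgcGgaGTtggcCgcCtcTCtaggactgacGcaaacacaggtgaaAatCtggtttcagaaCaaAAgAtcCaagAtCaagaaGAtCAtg
Dlx6 homeobox: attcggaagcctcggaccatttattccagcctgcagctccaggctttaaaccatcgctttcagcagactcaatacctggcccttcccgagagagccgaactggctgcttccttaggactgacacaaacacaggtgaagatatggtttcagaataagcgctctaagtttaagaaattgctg
Between the 15 pairs of Dlx genes the homeobox was 66.1% to 81.7% identical, the highest value being that of Dlx2 and Dlx3. The longest run of identical bases shared by the transcripts of any 2 of the 9 genes was 23 bases. Dlx5 and Dlx6 shared 73.3% of the homeobox and no run longer than 18 bases.

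Promoters of 5 of the 9 genes (250 bases before to 50 after the start, RefSeq, GRCm38.p6) were in the reference table, those of Dlx1, Dlx2, Barx1, Gsc and Lhx8. The Dlx2 promoter is shown because it holds most of the motif matches, and the promoters of Barx1 and Lhx8 because their base composition lies at opposite ends. In the Dlx2 promoter (chr2:71546705-71547004, minus strand), capitals mark matches on either strand to the Tead core GGAATG, the E-box CACGTG and the CCAAT box.
Dlx2 promoter: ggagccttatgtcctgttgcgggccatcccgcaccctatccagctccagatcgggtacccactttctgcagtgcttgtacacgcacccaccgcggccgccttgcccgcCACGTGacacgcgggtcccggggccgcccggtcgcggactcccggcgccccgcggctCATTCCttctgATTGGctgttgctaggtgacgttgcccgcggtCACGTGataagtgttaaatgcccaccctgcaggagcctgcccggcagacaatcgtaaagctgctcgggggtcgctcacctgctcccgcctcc
In the promoters of Barx1 (chr13:48662786-48663085, plus strand) and Lhx8 (chr3:154330511-154330810, minus strand), capitals mark CpG dinucleotides.
Barx1 promoter: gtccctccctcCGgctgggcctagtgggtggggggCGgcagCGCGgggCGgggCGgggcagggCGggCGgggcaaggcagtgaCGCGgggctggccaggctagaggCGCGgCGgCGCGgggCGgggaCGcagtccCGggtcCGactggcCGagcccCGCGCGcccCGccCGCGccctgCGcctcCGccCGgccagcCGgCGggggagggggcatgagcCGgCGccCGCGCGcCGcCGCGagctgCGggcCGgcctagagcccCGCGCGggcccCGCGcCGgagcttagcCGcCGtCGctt
Lhx8 promoter: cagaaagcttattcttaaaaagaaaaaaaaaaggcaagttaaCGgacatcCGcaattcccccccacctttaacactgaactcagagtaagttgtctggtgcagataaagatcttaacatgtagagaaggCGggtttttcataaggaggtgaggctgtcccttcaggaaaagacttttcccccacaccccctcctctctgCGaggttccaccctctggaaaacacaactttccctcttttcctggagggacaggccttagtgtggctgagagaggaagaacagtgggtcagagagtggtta
The Dlx2 window held 1 match to GGAATG, which 14.7% of 32851 promoters of this length hold, 2 matches to CACGTG, held by 7.15%, and 1 match to CCAAT, held by 37.4%. The Gsc window held 1 match to TATAAA, held by 13.6%. No window held TAATTA, the homeodomain core, which 5.29% of promoters hold, and those of Dlx1, Barx1 and Lhx8 held none of the 5 motifs. No 2 of these motifs share bases in the Dlx2 window. The Barx1 window had 50 CpG and 84.7% GC, the Lhx8 window 4 CpG and 47.0% GC, and the median promoter 7 CpG and 52.7% GC.

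The libraries held 8191219 to 11661941 counts in control NCCs and 12633319 to 19808620 in deficient NCCs. Smarcc1 was lower in every deficient library (42.1, 55.0 and 35.1 CPM in controls 1, 2 and 3, and 29.4, 26.4 and 24.5 CPM in deficient 1, 2 and 3). Its log2 fold change was −0.71 (SE 0.156, edgeR adjusted p = 0.0676), where CPM is counts per 1000000 of the TMM-normalized library size. Smarcc2 stayed between 82.3 and 92.9 CPM in all libraries, at a log2 fold change of −0.11 (edgeR adjusted p = 0.2514), and the floxed exons were not read apart from the rest of either gene, so these counts do not measure the deletion itself. Of 14 markers of mesenchymal crest 13 were tested. All 13 had a negative log2 fold change after TMM scaling and 9 were called lower, against 52.3% and 4.88% of all tested genes. Foxc2, 1 of the 13, had 9, 20 and 11 counts in controls 1 to 3 and 0, 1 and 9 in deficient 1 to 3. It passed the filter on low counts only through the controls, so its sign followed from that entry. The summed level of the 14 markers was 259 to 425 CPM in controls and 156 to 197 CPM in deficient libraries. Of 12 macrophage markers all 12 were detected in every library, with Ctss at a mean of 3833 CPM and Lyz2 at 3475 CPM, and their summed level ran from 12030 to 13950 CPM in controls and from 14070 to 15360 CPM in deficient libraries. The libraries labelled as neural crest therefore held strong macrophage markers, none of which was called, with log2 fold changes of 0.15 to 0.25. Their part in the results on the 9 genes was not tested.

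The 9 genes were detected at low levels. Summed over the 6 libraries they had between 8 counts (Dlx4) and 199 counts (Dlx1), and 5 of them, Dlx1, Dlx2, Dlx5, Dlx6 and Lhx8, passed the filter on low counts and were tested, while Dlx3, Dlx4, Barx1 and Gsc were not. A gene was called when edgeR's quasi-likelihood test gave an adjusted p (Benjamini-Hochberg) no higher than 0.1 over the 13961 tested genes, the log2 fold change was at least 0.58 in size and the mean level was at least 2 CPM. By this rule 0 of the 5 tested genes were called, against 4.88% of all tested genes called lower and 0.0573% called higher. Dlx6 and Lhx8, 2 of the 5, had an adjusted p of at most 0.1 and were lower, against 7.75% of all tested genes. Both also met the fold criterion but not the level, and without the level criterion the share called lower was 6.23% of all tested genes and 10.1% of the 2594 tested genes with 62 to 199 counts in all. Dlx6 and Lhx8 passed the filter, of about 0.823 CPM in 3 libraries, only through the controls, and 0 of their deficient libraries reached it, so they could be tested only because they were high in controls. Of 170 genes that passed in this way all 170 had a negative log2 fold change, and 89 met the p and fold criteria, so these criteria on Dlx6 and Lhx8 are given as a description. In a fit with no filter on low counts, over 32523 genes, the edgeR adjusted p was 0.001302 for Dlx6 and 0.05638 for Lhx8. At an unadjusted p under 0.05 there were 4 of 5 in edgeR, 4 of 5 in limma-voom and 3 of 5 in DESeq2, against 27.3%, 27.9% and 23.4% of all tested genes. Dlx6 and Lhx8 are among these genes, and the limit of their entry through the controls applies here too.

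All 5 tested genes had a negative log2 fold change after TMM scaling, with a median of −0.94, and 3 of them turned positive when scaled to mesenchymal crest markers. After TMM scaling the sign of Dlx6 and Lhx8 followed from their entry through the controls alone. Only Dlx1, Dlx2 and Dlx5 could have had either sign. The median over all tested genes was −0.02 after TMM scaling, and 52.3% of all tested genes, or 72.8% of those with similar counts, were negative. The mesenchymal scaling used the 10 markers with a mean of at least 2 CPM and made their median log2 level about equal in all libraries. It brought the median of all tested genes to 1.21, and on that scale Dlx1, Dlx2 and Dlx5 had a positive sign and Dlx6 and Lhx8 a negative one. Control and deficient libraries did not overlap for Dlx2, Dlx6, Barx1, Gsc and Lhx8, each lower in every deficient library, and 3 of these (Dlx2, Dlx6 and Lhx8) were among the 5 tested genes. For Dlx6 and Lhx8 this followed from their entry into the test through the controls alone, so it is given as a description. Among the tested genes only Dlx2 can be set beside the shares that follow. Of all tested genes 16.4% were lower in every deficient library, 31.4% did not overlap in either direction, and 23.3% of those with similar counts were lower in every deficient library. In a bulk sample fewer cells of a type and less RNA per cell cannot be told apart.

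**Figure D1:**
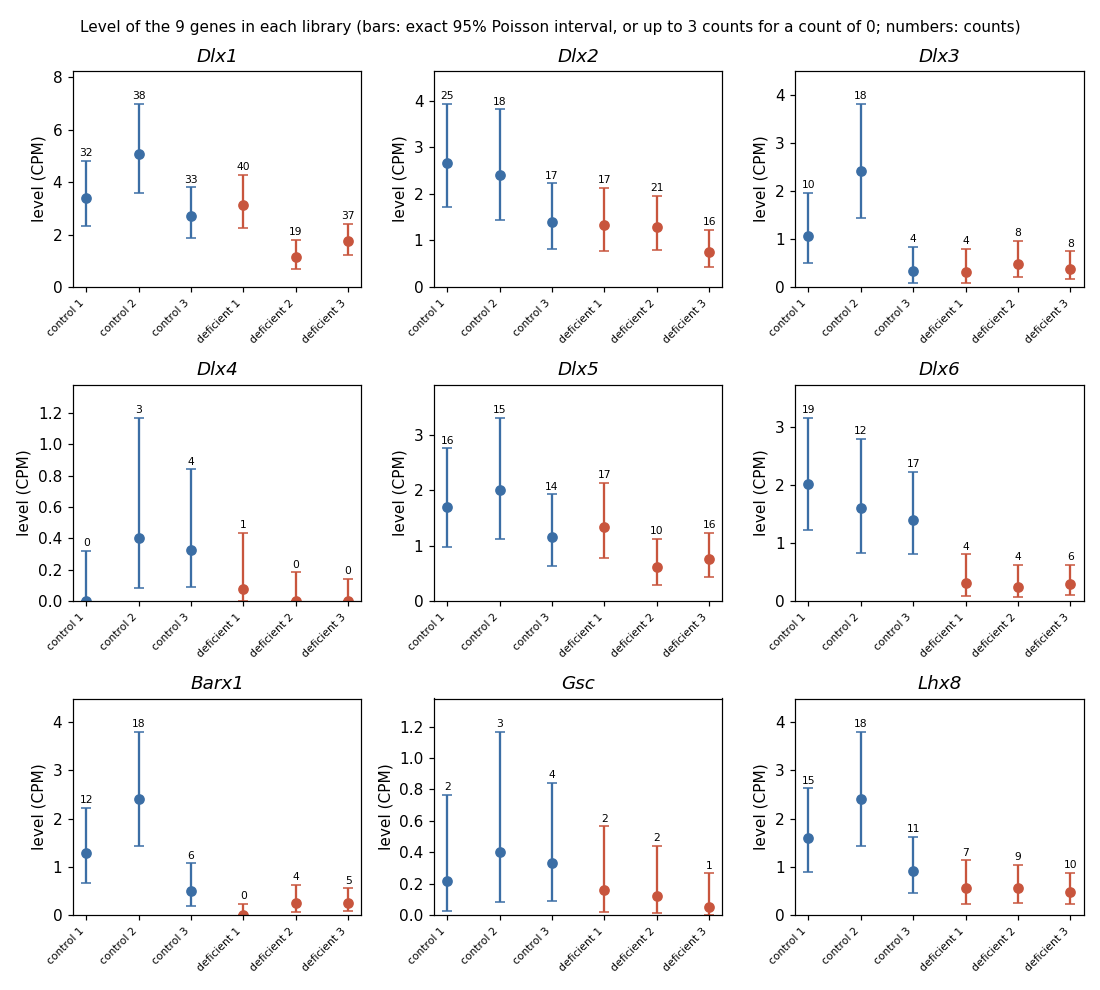
Level of each of the 9 genes in each library, in CPM, with the exact 95% Poisson interval of the count (up to 3 counts where the count is 0) and the count itself above it; each panel has its own axis, and control libraries are blue and deficient libraries red. The 3 deficient libraries lie between 0.244 and 0.313 CPM for Dlx6, below the control libraries at 1.4 to 2.02 CPM.

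Dlx6, which with Dlx5 specifies the lower jaw, had the largest log2 fold change of the 5 tested genes, having entered the test through its control libraries alone. Its level was 2.02, 1.61 and 1.4 CPM in controls 1, 2 and 3 (19, 12 and 17 counts) and 0.313, 0.244 and 0.285 CPM in deficient 1, 2 and 3 (4, 4 and 6 counts). The lowest control library was above every deficient library, and the deficient libraries were close to each other. The log2 fold change was −2.54 (SE 0.458, edgeR adjusted p = 0.04551), and the pooled counts, 48 against 14, gave a level 5.92-fold lower in deficient NCCs (exact 95% interval 3.21 to 11.6, counting error only). Across the settings it stayed negative, from −2.67 to −1.34. In the filtered TMM fits this sign followed from the entry of Dlx6 through the controls alone. The value of −1.34 was that with mesenchymal scaling (edgeR adjusted p = 0.03142). On that scale 78.7% of all tested genes had an unadjusted edgeR p under 0.05, and 23 were called lower and 10435 higher. The adjusted p depended on single libraries and was 0.2138 without control 1, 0.1117 without control 2 and 0.1297 without deficient 3 (edgeR).

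Dlx5, the partner of Dlx6 on chromosome 6, had a smaller log2 fold change. Its level was 1.7, 2.01 and 1.15 CPM in controls 1 to 3 and 1.33, 0.611 and 0.76 CPM in deficient 1 to 3. Deficient 1 lay above control 3, so the groups overlapped. The log2 fold change was −0.85 (SE 0.437, edgeR adjusted p = 0.2336) and turned to 0.34 with mesenchymal scaling. Pooled, 45 against 43 counts gave a level 1.81-fold lower (exact 95% interval 1.16 to 2.81, counting error only, which leaves out the spread between libraries).

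Dlx1 had the highest count of the 9 genes. Its level was 3.4, 5.08 and 2.71 CPM in controls 1 to 3 and 3.13, 1.16 and 1.76 CPM in deficient 1 to 3. Deficient 1, with 40 counts, lay above control 3, with 33. The log2 fold change was −0.89 (SE 0.386, edgeR adjusted p = 0.1645), against 0.29 with mesenchymal scaling. With each library left out it ran from −1.31 (without deficient 1, edgeR adjusted p = 0.07034) to −0.61 (without deficient 2, edgeR adjusted p = 0.3354), and without control 2 it was −0.62 (edgeR adjusted p = 0.4596).

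Dlx2 did not overlap between the groups. Its level was 2.66, 2.41 and 1.4 CPM in controls 1 to 3 and 1.33, 1.28 and 0.76 CPM in deficient 1 to 3, with control 3 and deficient 1 close together. The log2 fold change was −0.93 (SE 0.397, edgeR adjusted p = 0.1564), against 0.29 with mesenchymal scaling. The exact permutation test over the 6 libraries gave p = 0.1, two-sided, which is the smallest value that 3 against 3 libraries allow.

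Dlx3 and Dlx4, the pair on chromosome 11, were under the filter. Dlx3 was at 1.06, 2.41 and 0.328 CPM in controls 1 to 3 and at 0.313, 0.489 and 0.38 CPM in deficient 1 to 3. Control 2 alone held 18 of the 32 control counts, and control 3, with 4 counts, lay below deficient 2 and 3. Dlx4 had 0, 3 and 4 counts in controls and 1, 0 and 0 in deficient libraries. A count of 0 in deficient 2 and 3 allows up to 3 counts, or 0.183 and 0.142 CPM, so Dlx4 was at the limit of detection in both groups.

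Barx1, a factor of proximal arch mesenchyme, was not tested for want of counts. It was at 1.28, 2.41 and 0.492 CPM in controls 1 to 3 (12, 18 and 6 counts), and at 0, 0.244 and 0.237 CPM in deficient 1 to 3 (0, 4 and 5 counts). Each control library lay above every deficient library, and the 0 in deficient 1 allows up to 0.235 CPM. Pooled, 36 against 9 counts gave a level 6.91-fold lower (exact 95% interval 3.27 to 16.3, counting error only). The fit with no filter on low counts gave a log2 fold change of −2.82 (SE 0.691, edgeR adjusted p = 0.002356). In that fit the other 3 genes under the filter did not pass, with edgeR adjusted p of 0.1216 for Dlx3, 0.2954 for Dlx4 and 0.5752 for Gsc. Control 2 held 18 of the 36 control counts.

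Lhx8, the factor of oral mesenchyme, also entered the test through its control libraries alone. It was at 1.6, 2.41 and 0.903 CPM in controls 1 to 3 and at 0.548, 0.55 and 0.475 CPM in deficient 1 to 3. The deficient libraries were close to each other and lay below every control. The log2 fold change was −1.59 (SE 0.477, edgeR adjusted p = 0.08783). Pooled, 44 against 26 counts gave a level 2.92-fold lower (exact 95% interval 1.76 to 4.94, counting error only). With mesenchymal scaling the log2 fold change was −0.33 (edgeR adjusted p = 0.5803), and without control 1, control 2, deficient 2 or deficient 3 the edgeR adjusted p was 0.2503, 0.2969, 0.1567 and 0.2767.

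Gsc had 2, 3 and 4 counts in controls 1 to 3 and 2, 2 and 1 in deficient 1 to 3. Its level was 0.213 to 0.401 CPM in controls and 0.0475 to 0.157 CPM in deficient libraries, without overlap. The pooled ratio of 3.11 had an exact 95% interval of 0.936 to 11.8. This interval covers counting error only and already includes no difference, so a difference was not detectable at this depth.

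**Figure D2:**
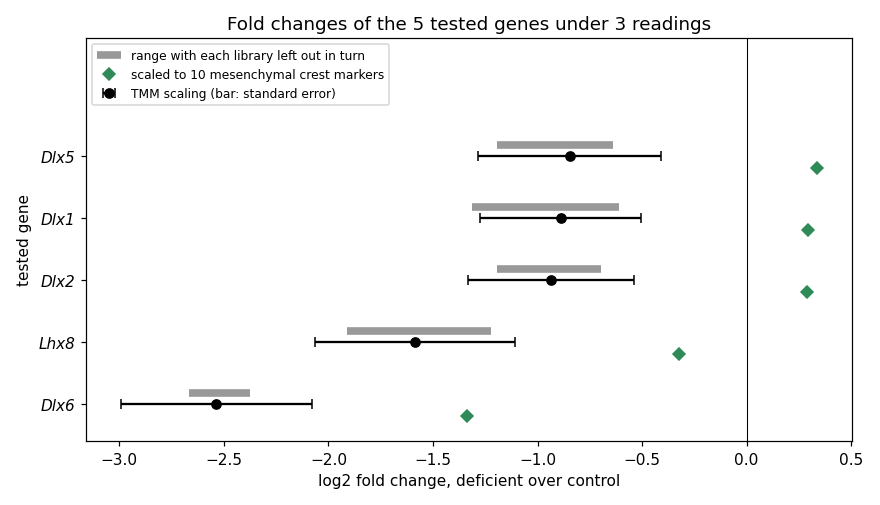
Log2 fold change, deficient over control, of the 5 tested genes: black points with standard errors are the TMM-scaled fit, grey bars the range when each library was left out in turn, and green diamonds the fit scaled to 10 mesenchymal crest markers. On that scale Dlx1, Dlx2 and Dlx5 lie right of 0 at 0.29 to 0.34 and Dlx6 stays at −1.34.

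Per kilobase of exon, the control levels of most of the 9 genes could not be ordered. In controls Barx1 was highest at 0.995 ± 0.688 CPM per kb (SD, n = 3), followed by Dlx2 at 0.754 ± 0.234, Dlx5 at 0.715 ± 0.192, Dlx6 at 0.705 ± 0.134, Dlx1 at 0.692 ± 0.226, Lhx8 at 0.646 ± 0.298 and Dlx3 at 0.486 ± 0.405 CPM per kb. Each of these overlapped the next between libraries, and Dlx3 overlapped Gsc at 0.248 ± 0.075 CPM per kb. Gsc lay above Dlx4, at 0.0744 ± 0.0654 CPM per kb, in every control. Their counts in controls 1 to 3 were 2, 3 and 4 against 0, 3 and 4. In controls 2 and 3 this order therefore came from exon length alone. In deficient libraries Dlx5, Dlx2 and Dlx1 were at 0.398 ± 0.168, 0.394 ± 0.111 and 0.374 ± 0.187 CPM per kb, while Dlx6 and Barx1 were at 0.118 ± 0.0146 and 0.115 ± 0.0994 CPM per kb.

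The make-up of the Dlx counts gives a comparison that does not depend on how the libraries were scaled. Dlx6 was 18.6%, 11.5% and 19.1% of all Dlx counts in controls 1 to 3 and 4.82%, 6.45% and 7.23% in deficient 1 to 3, without overlap. Pooled, its share was 16.3% in controls (exact 95% binomial interval 12.2 to 21.0) and 6.14% in deficient NCCs (3.4 to 10.1). The shares of Dlx1 (34.9% and 42.1%), Dlx2 (20.3% and 23.7%) and Dlx5 (15.3% and 18.9%) had overlapping intervals.

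**Figure D3:**
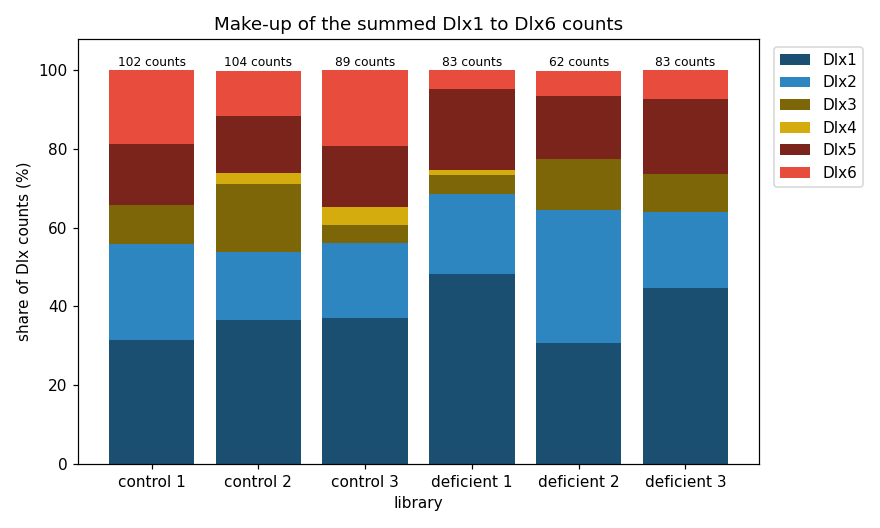
Share of each Dlx gene in the summed counts of Dlx1 to Dlx6, in percent, for each library, with the number of Dlx counts above each bar. The Dlx6 segment takes 11.5% to 19.1% in control libraries and 4.82% to 7.23% in deficient libraries.

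Within the pair on chromosome 6 there were 1.19, 0.8 and 1.21 Dlx6 counts for each Dlx5 count in controls 1 to 3 and 0.235, 0.4 and 0.375 in deficient 1 to 3. The lowest control ratio was above the highest deficient one, and the exact permutation test gave p = 0.1, two-sided, the smallest value possible here, or 0.25 after Benjamini-Hochberg adjustment over the 5 ratios computed. The ratio of Dlx2 to Dlx1 overlapped, at 0.781, 0.474 and 0.515 in controls and 0.425, 1.11 and 0.432 in deficient libraries (exact permutation p = 1.0). Dlx5 and Dlx6 together gave 0.482 to 0.62 counts for each count of Dlx1 and Dlx2 in controls and 0.35 to 0.415 in deficient NCCs (exact permutation p = 0.1, adjusted 0.25), while Dlx5 per Dlx1 was 0.437 in the pooled controls and 0.448 in the pooled deficient libraries (exact permutation p = 0.5, adjusted 0.625). These ratios were chosen after the counts were seen.

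Summed over Dlx1 to Dlx6 there were 102, 104 and 89 counts in controls 1 to 3 and 83, 62 and 83 in deficient 1 to 3. This was 10.8, 13.9 and 7.3 CPM in controls and 6.5, 3.79 and 3.94 CPM in deficient libraries, with control 3 and deficient 1 closest to each other and no overlap. The means were 10.7 ± 3.3 and 4.74 ± 1.52 CPM (SD, n = 3), or 2.25-fold lower in deficient NCCs. The summed mesenchymal markers were 328 ± 86.3 and 171 ± 22.6 CPM, or 1.92-fold lower, and control 2 was highest and control 3 the lowest control for both sums. For each 1000 mesenchymal marker counts there were 36.1, 32.8 and 28.2 Dlx counts in controls 1 to 3 and 33.1, 23.6 and 25.2 in deficient 1 to 3, which overlapped. On the same scale Dlx6 had 6.72, 3.78 and 5.39 counts in controls and 1.59, 1.52 and 1.82 in deficient libraries, 3.22-fold lower in the means and without overlap. Barx1 (4.24, 5.67 and 1.9 in controls, 0, 1.52 and 1.52 in deficient libraries) did not overlap either. The same held for Lhx8 (5.3, 5.67 and 3.49 in controls, 2.79, 3.43 and 3.04 in deficient libraries), with control 3 and deficient 2 close together.

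**Figure D4:**
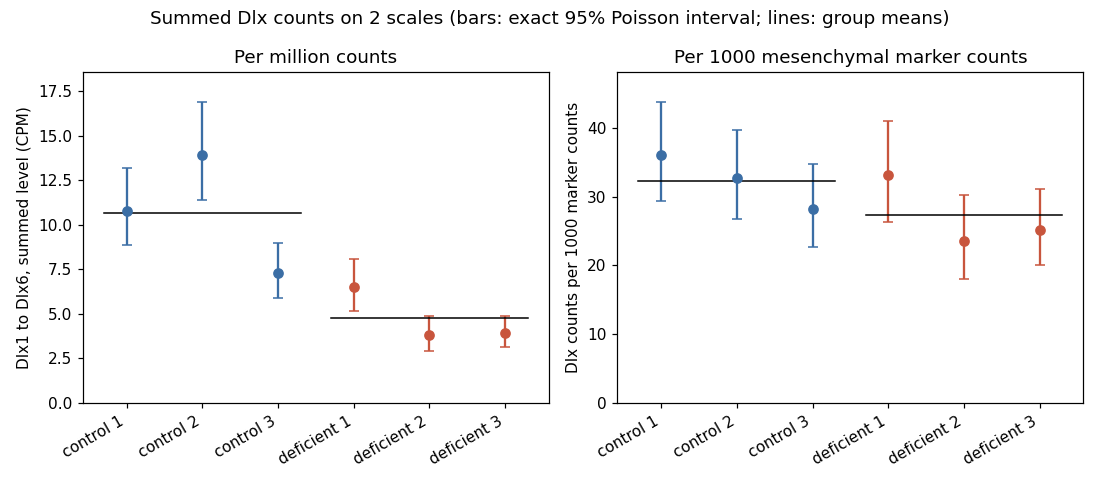
Summed Dlx1 to Dlx6 level in CPM (left) and per 1000 counts of 14 mesenchymal crest markers (right) in each library, with exact 95% Poisson intervals and group means as lines. The groups are apart on the left (7.3 to 13.9 and 3.79 to 6.5 CPM) and overlap on the right (28.2 to 36.1 and 23.6 to 33.1).

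Other cell types that use Dlx genes were looked for by their markers. Of 12 forebrain GABAergic markers 5 were tested, 4 were negative after TMM scaling and 1 with mesenchymal scaling, and 0 were called. After TMM scaling 52.3% of all tested genes were negative and 4.88% were called lower. The summed level of these markers was 16.4 to 24.4 CPM in controls and 10.6 to 17.9 CPM in deficient libraries. Gad1, a GABA-synthesizing enzyme, was at a log2 fold change of −1.58 (edgeR adjusted p = 0.07646). Of 12 markers of surface and arch epithelium 1 was tested, Pax9, at −1.43 (edgeR adjusted p = 0.09258), which arch mesenchyme also expresses. The summed level of this list was 4.6 to 7.09 CPM in controls and 1.8 to 2.93 CPM in deficient libraries, and Epcam had 2 to 8 counts in a library, Krt5 none in controls and Krt14 at most 1. The part of these cells in the Dlx levels was not tested.

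After TMM scaling, glial, neuronal and erythroid markers had medians beyond that of the 5 tested genes (−0.94). The forebrain GABAergic markers, with a median of −0.61, did not. Of all tested genes 52.3% were negative on this scale and 4.88% were called lower. The median log2 fold change was −1.21 for 5 tested glial and migratory crest markers (2 called lower), −1.15 for 9 sensory and autonomic neuron markers (9 negative, 2 called lower) and −1.73 for 7 erythroid markers (5 negative, 0 called). The last include the embryonic globins Hbb-y (−2.07, edgeR adjusted p = 0.1056) and Hba-x (−1.90, edgeR adjusted p = 0.1821). Control 2 held the highest counts of both, 182 and 141. The other 2 of the 7, Hba-a1 and Hba-a2, were positive, at 0.02 and 0.48. With mesenchymal scaling the glial, neuron and erythroid medians were 0.0036, 0.10 and −0.42. For 5 endothelial markers it was 0.06 after TMM scaling, with 0 called. The part of these cells in the levels of the 9 genes was not tested.

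The noncoding RNAs of the Dlx loci were read beside their genes. Dlx6os1 (Evf2), which is transcribed from the opposite strand across Dlx6 and its enhancers, had 25, 27 and 25 counts in controls 1 to 3 and 9, 9 and 23 in deficient 1 to 3, lower in CPM in every deficient library. Its log2 fold change was −1.76 (SE 0.394, edgeR adjusted p = 0.05829), and it was not called because its mean of 1.78 CPM was under the minimum. With mesenchymal scaling it was at −0.49 (edgeR adjusted p = 0.3307). It shares 0 exonic bases with Dlx6, and for each Dlx6 count there were 1.32, 2.25 and 1.47 Dlx6os1 counts in controls and 2.25, 2.25 and 3.83 in deficient libraries (exact permutation p = 0.3, adjusted 0.5). Dlx1as had 9, 4 and 5 counts in controls and 2, 3 and 9 in deficient libraries, Dlx6os2 2, 6 and 2 and then 0, 0 and 5, and Dlx4os 2 counts in each group, and none of these was tested. Dlx1as overlaps 6.2% of the exonic length of Dlx1, Dlx6os2 4.4% of Dlx6 and Dlx4os 2.4% of Dlx4. The strand setting of the counting is not given in the sources used here, so reads in these overlaps cannot be assigned with certainty.

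The nearest protein-coding genes on either side of the 9 genes numbered 12, of which 8 were tested and 0 were called. Of the 8, 7 were negative after TMM scaling and 0 with mesenchymal scaling. After TMM scaling 52.3% of all tested genes were negative and 4.88% were called lower. Around Dlx6 and Dlx5, Sem1 had a log2 fold change of 0.01 and Sdhaf3 of −0.43, and around Dlx1 and Dlx2, Metap1d had −0.36 and Itga6 −0.20. Dicer1, next to Gsc at a distance of 214412 bp, was the only neighbour with an adjusted p of at most 0.1 in edgeR, at −0.54. It was thus 1 of 8, and 11.9% of all tested genes had such an adjusted p in either direction, 7.75% being lower. Ptpdc1 and Phf2, beside Barx1, had −0.77 and −0.11, and Tyw3, beside Lhx8, had −0.69. Itga3, Tac4, Serpina3n and Slc44a5 were under the filter.

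Upstream of the Dlx genes, the signals that pattern the arches were mostly below the call rule. Of 29 listed genes of endothelin, BMP, FGF and related signaling 23 were tested, 4 were called lower, 0 higher, and 15 were negative. Their median log2 fold change was −0.33, and of all tested genes 4.88% were called lower and 52.3% were negative. The 4 were Ednra, the receptor of endothelin 1 on crest mesenchyme (40, 42 and 35 counts in controls and 28, 22 and 52 in deficient libraries, log2 fold change −1.05, edgeR adjusted p = 0.09334), Bmpr1a, a BMP type I receptor (−0.93), Fgfr2, an FGF receptor (−0.87), and Smad5, a transducer of BMP signals (−0.61). Edn1, the ligand of Ednra, had a log2 fold change of 0.30 (edgeR adjusted p = 0.1175) at a mean of 58.1 CPM. With mesenchymal scaling all 23 were positive, with a median of 0.89, and 0 were called lower, and without control 1, control 2 or deficient 3 the count was also 0.

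Beside and downstream of the Dlx genes, 29 of 45 listed arch transcription factors were tested, and all 29 had a negative log2 fold change after TMM scaling, with a median of −1.18, against 14 negative and 15 positive with a median of 0.03 when scaled to the mesenchymal markers. Of these, 19 were called lower and 0 higher, and 16 were lower in every deficient library, against 4.88% and 16.4% of all tested genes. After TMM scaling 52.3% of all tested genes were negative. The largest were those of Alx4, an aristaless-like factor of frontonasal and limb mesenchyme (−2.26), Foxd1 (−1.81), Sox9, which is needed for cartilage formation (−1.75), and Tfap2b (−1.70). Hand2, a target of Ednra and Dlx5/6 signaling in the distal arch, was at 24, 11 and 14 counts in controls and 15, 16 and 24 in deficient libraries (log2 fold change −0.64, edgeR adjusted p = 0.3243), and Hand1 had 1 count in all. Nr2f2, a nuclear receptor of the dorsal arch, was at −0.98 (edgeR adjusted p = 0.1727), and Hoxa2, which marks the second arch, had 16, 12 and 9 counts in controls and 10, 8 and 9 in deficient libraries and was not tested. With mesenchymal scaling Alx4 had a log2 fold change of −0.96, and 1 of the 29 was called lower, while without control 1 or deficient 3 the count was 0, without control 2 it was 2 and without deficient 2 it was 7.

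**Figure D5:**
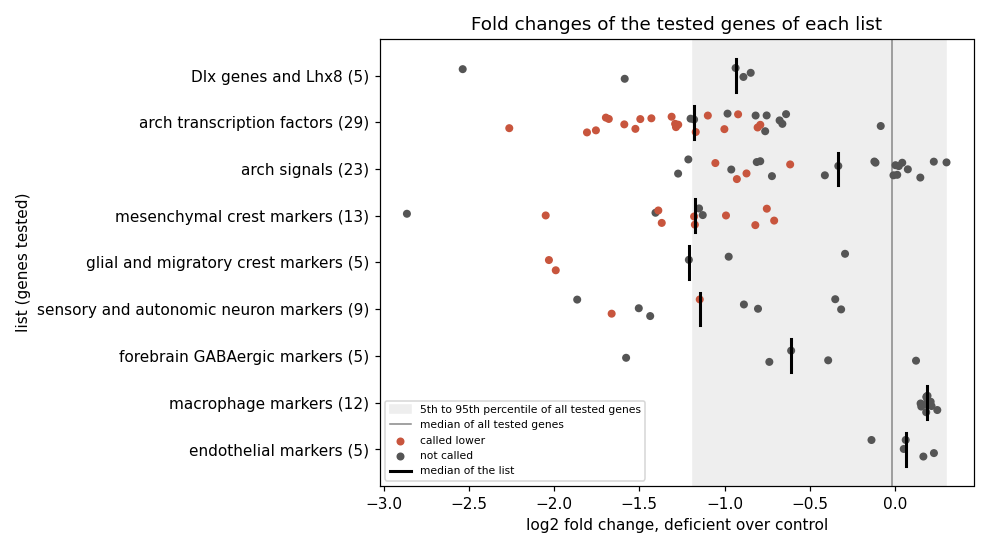
Log2 fold change, deficient over control after TMM scaling, of the tested genes of each list (points, red where called lower) with the list's median as a black line, against the 5th to 95th percentile of all tested genes (grey band, −1.19 to 0.30). Dlx6 and Lhx8 lie left of the band, and Dlx1, Dlx2 and Dlx5 within it.

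Over the 6 libraries, genes whose log2 level closely followed the summed Dlx level, among 7361 with a mean of at least 10 CPM, were Pbrm1 (Pearson r = 0.9992), Sox11 (0.9983), Ncbp1 (0.9977) and Cdh2 (0.997). The 6 points share the difference between the groups and the scaling of each library. The log2 fold changes of these genes were −0.44, −1.04, −0.36 and −0.98, against −1.17 for the summed Dlx level.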

How the data were processed

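RNAseq of GFP+ NCCs from 3 control and 3 BAF155/BAF170-deficient samples was analysed. According to the methods and the submitters' processing notes, the authors checked reads with FastQC 0.11.7, trimmed adapters with cutadapt 1.18, used STAR to align paired-end reads of strand-specific poly(A) libraries to GRCm38, and ran featureCounts to obtain gene totals. The authors deposited raw counts per gene, without normalization. The strand setting and the treatment of reads with several positions are not given in the sources used here. Of 46983 genes 46488 had a name in GENCODE M21.

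Tests were run with edgeR 4.0.16 (R 4.3.3): filterByExpr (minimum count 10, minimum total 15), TMM, robust quasi-likelihood test with condition as the only term, and Benjamini-Hochberg adjustment over 13961 genes, with the thresholds of the study's methods. The common coefficient of variation was 12.8%. CPM used TMM-scaled library sizes, and standard errors came from the F statistic. Intervals are exact (Poisson, or Clopper-Pearson at 95%) and cover counting error only. Fold changes of pooled counts treat the 3 libraries of a group as 1. Permutation tests over libraries were exact and two-sided. Sensitivity was examined with DESeq2 1.42.0, limma-voom 3.58.1, other scalings, filters and thresholds, a replicate block and each library left out. Other steps used scipy 1.17.1 and pandas 2.3.3 under Python 3.11.15, and matplotlib 3.10.9 drew the figures.

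The 9 genes and all lists were chosen with earlier results of these data known. Named beside the 9 genes were the noncoding RNAs of the Dlx loci, the nearest protein-coding neighbours, the 4 largest differences among called genes of each list with Hand1, Hand2, Ednra, Edn1, Hoxa2 and Nr2f2, the 5 genes most like the Dlx sum, of which 1 is not reported here, and defining markers. Gad1, Hbb-y, Hba-x, Hba-a1 and Hba-a2 were named after their values were seen.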

Additional observations from a re-analysis of the deposited data

How the results depend on the processing

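The counts behind the 9 genes were low and limited every statement on them: 4 genes were not tested, and the adjusted p of Dlx6 and Lhx8 moved across the threshold when single libraries were left out. Of the 9 genes 0 were called lower, against 1 (Dlx1) with no filter on low counts, 2 without the minimum mean CPM and 0 to 1 with each library left out, the 1 being Dlx1 without control 3 or without deficient 1. The scaling to mesenchymal crest markers made the median log2 level of 10 of them about equal in all libraries. On that scale the log2 fold changes reversed for Dlx1 (0.29), Dlx2 (0.29) and Dlx5 (0.34), and the median of the tested genes was 0.29. The log2 ratio of the summed Dlx levels was 0.043 against −1.17, and 1 of the arch transcription factors and 0 of the arch signals were called lower, against 19 and 4. At an adjusted p of at most 0.05 these counts were 2 and 0, limma-voom gave 2 arch signals, and with each library left out they ran from 0 to 23 and from 0 to 5. With each library left out the median of the tested genes ran from −1.31 to −0.80, the lowest without deficient 1, and the log2 ratio of the summed levels from −1.47 to −0.93. Over all genes 681 were called lower, against 1143 with the replicate block, 982 with no filter and 23 with mesenchymal scaling (where 10435 were called higher), and 0, 61, 1219, 1030, 219 and 17 without control 1, 2 and 3 and deficient 1, 2 and 3. Samples with the same replicate number had deviations correlated at 0.0284, −0.0335 and 0.293, so the numbers were not taken as a pairing, and deficient 1 correlated best with control 2. With the replicate block 0 of the 9 genes were called, and the adjusted p (edgeR) was 0.006628 for Dlx6, 0.03803 for Lhx8 and 0.0988 for Dlx2.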
